A study of Mus musculus with 2 samples.

Results

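The genes described here encode the nuclear-encoded subunits of the mitochondrial respiratory chain and of the ATP synthase, together with the complex I assembly factors that share the Nduf name. They were taken by symbol: every gene whose probe sets carry a single symbol in the platform annotation and whose symbol begins with Nduf followed by a, b, c, s or v, with Uqcr, with Cox and a number from 4 to 8, or with Atp5, plus Sdha, Sdhb, Sdhc and Sdhd. This gave 90 of the 18193 genes with a value, read by 179 probe sets. Of the 90, 82 encode subunits and 8 encode assembly factors (the Ndufaf genes). The symbol rule itself uses no measured value, but the group was taken up with earlier results of these data known. The probe set with the highest mean log2 intensity stood for each gene.

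RNA came from 2 cell fractions sorted from spleens of C57BL/6 mice bearing hepatocellular carcinoma, a liver cancer. The first fraction was Ter119+CD45-: Ter119 marks the erythroid lineage and CD45 marks white cells. It is called CD45-negative below. The second was the CD45+ fraction of the same tumour-bearing mice, used by the study as its control and called CD45-positive. All mice carried tumours, so no comparison with tumour-free animals is possible, and the age of the mice, the number pooled and the tumour model are not given in the sources used here. Each fraction was hybridised to 1 Affymetrix array, so no difference could be set against replicate error and no p-value is given.

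The respiratory chain passes electrons from NADH (through complex I) and from succinate (through complex II) by way of ubiquinone to complex III, then by cytochrome c to complex IV, which reduces oxygen. Complexes I, III and IV pump protons, and the ATP synthase (complex V) uses the resulting gradient to make ATP. Red cell precursors hold active mitochondria, where haem synthesis begins and ends, and reticulocytes then clear these organelles, so that mature mammalian red cells have none.

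The fractions carried the marker genes of their labels. All 9 measured red cell markers were at least 4-fold higher in the CD45-negative array, and all 9 white cell markers were at least 2-fold lower. The summed intensity was 385207 against 11517.6 for the red cell list and 3613.9 against 152456 for the white cell list. Platelet and megakaryocyte markers were also higher in the CD45-negative array, 7 of 7 past 4-fold, with a summed intensity of 35475.5 against 1716.7. Neutrophil and macrophage markers were lower there, 8 of 8 past 4-fold (4995.3 against 153072). Liver markers were above background for 1 of 6 genes in each array, and albumin was not above it in either. Stromal and endothelial markers were above it for 1 of 7 genes in the CD45-negative array and 2 of 7 in the CD45-positive array. The part of platelet RNA in the mitochondrial gene values was not tested. In such bulk samples, fewer cells of a type and less RNA per cell cannot be told apart.

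A gene counted as measured when its intensity in at least 1 array exceeded 101.1. This level is the 95th percentile over both arrays of 80 odorant and pheromone receptor probe sets (Olfr, Vmn1r and Vmn2r genes). Values below that level were set to it. Where a mean of probe sets is given, it takes in every probe set of the gene, also those under the level. Of the 82 subunit genes, 76 were measured, all of them in both arrays. The 6 others are Ndufb4 and the isoforms Cox4i2, Cox7a1, Cox7b2, Cox8b and Ndufa4l2. Of the 8 assembly factors, all were measured, 7 of them in both arrays. Differences below are on the log2 scale and signed as CD45-negative minus CD45-positive, so a value above 0 means more signal in the red cell fraction. Intensities of different genes are not compared with each other, because probe sets differ in their response.

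Most subunit genes had similar intensities in the red cell and the white cell fraction. Of 76 measured subunits, 61 (80.3%) differed by less than 2-fold, against 5895 of all 11793 measured genes and 48.3% of the 3691 genes with a mean intensity over 1000. Their interquartile range ran from -0.26 to 0.61, a width of 0.87, and that of all measured genes from -1.44 to 0.58, a width of 2.02. At least 2-fold higher in the CD45-negative array were 9 subunits (11.8%), where 16.8% of all measured genes were. At least 2-fold lower were 6 (7.89%), where 33.3% of all measured genes were. At 4-fold the counts were 2 higher (8.31% of all genes) and 4 lower (16.8% of all genes). The 3691 brighter genes, a comparison chosen after seeing the data, had 28.6% past 2-fold higher and 23.1% past 2-fold lower, and 15.8% and 11% past 4-fold.

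As deposited, 52 of the 76 subunits were above 0, as were 5107 of all 11793 measured genes and 2016 of the 3691 brighter genes. The median difference of the subunits was 0.29 as deposited, against -0.26 for all measured genes and 0.16 for the brighter genes. Its sign depends on the scaling between arrays: it was -0.11 after quantile normalization, when the median of all measured genes was 0.01, and 0.80 after centring on genes measured in both arrays, when that median was 0.12. The share of subunits within 2-fold was 84.2% after quantile normalization (52.2% of all genes), 80.3% after centring on all probe sets (50.3%) and 59.2% after centring on genes measured in both arrays (51.6%). The split of all measured genes moved too: 21.8% were 2-fold higher and 26.0% lower after quantile normalization, and 23.9% and 24.6% after centring on genes measured in both arrays.

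**Figure D1:**
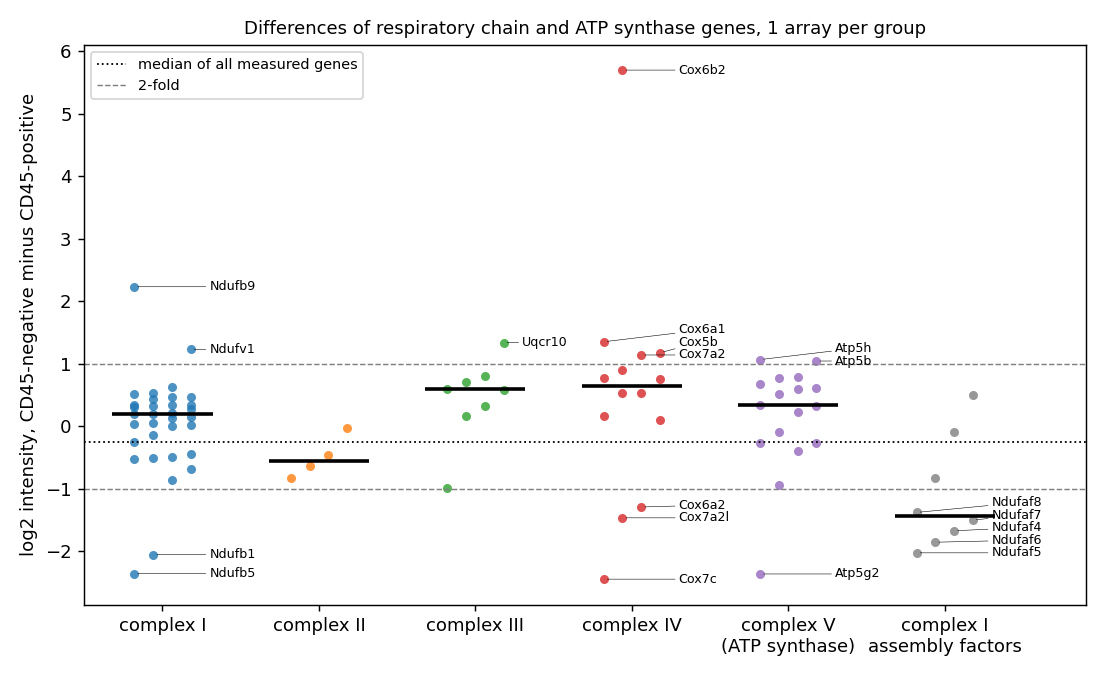
Log2 difference between the arrays (CD45-negative minus CD45-positive) for each measured gene, 1 point per gene, grouped by complex; thick bars are group medians, the dotted line is the median of all measured genes (-0.26) and dashed lines mark 2-fold. Most points lie between the dashed lines, Cox6b2 stands at 5.70, and 5 of 8 assembly factors lie below -1.

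**Figure D2:**
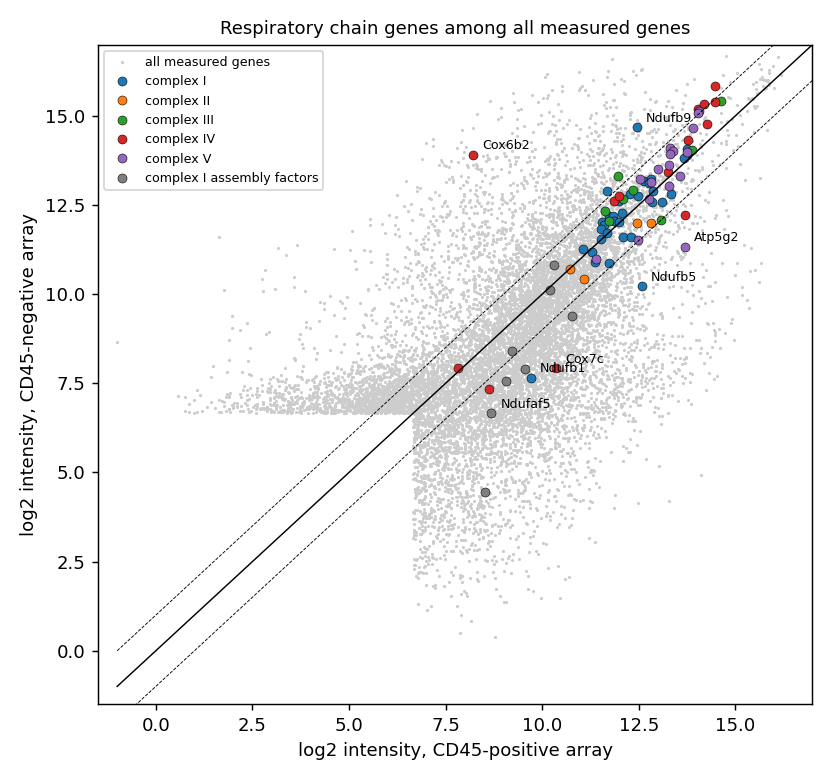
Log2 intensity in the CD45-negative array against that in the CD45-positive array for all 11793 measured genes (grey) and the 84 measured members (coloured by complex); the solid line is equality and dashed lines mark 2-fold. The subunits lie close to the line of equality, with Cox6b2 and Ndufb9 above it and Ndufb5, Atp5g2, Cox7c and Ndufb1 below.

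Complex I, the NADH dehydrogenase, was the most even of the large groups. Of 34 subunit genes 33 were measured, 29 of them within 2-fold, with a median difference of 0.19 and an interquartile range from -0.25 to 0.35. The sign of that median is not stable, since it was -0.16 after quantile normalization and -0.02 with the mean of each gene's probe sets. The 12 Ndufa genes ran from -0.52 to 0.52. Of the 6 core subunits that carry or surround the redox centres, 5 had a difference above 0, where 5107 of all 11793 measured genes did. Of the 5, Ndufv2 and Ndufs7 turned to -0.18 and -0.14 after quantile normalization. Ndufv1, which binds NADH and the flavin, stood at 7656 in the CD45-negative array against 3261 in the other (2.35-fold higher). Its other probe sets gave 0.28 and 0.70, so the 2-fold size rests on the brightest. Ndufv2 stood at 8812 against 6983 and Ndufs1 at 2454 against 2146, both iron-sulfur proteins of the NADH-oxidising arm. Ndufs3 (4717 against 3418) and Ndufs7 (3398 against 3259) belong to the arm that hands electrons to ubiquinone. Ndufs8, an iron-sulfur subunit of the same arm, had 6206 against 7392. Over 6 probe sets its difference ran from -1.63 to 0.08, and it was -0.98 without probe sets of the x and s types, which can bind other transcripts, and 0.25 after centring on genes measured in both arrays.

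The members of complex I that stood apart were accessory subunits of the Ndufb group, which sit in the membrane arm. Ndufb9 had 26311 against 5599, 4.70-fold higher, and a second probe set gave 18519 against 4457. Ndufb5 went the other way at 1200 against 6149, 5.12-fold lower, with 1021 against 5240 by its second probe set. Ndufb1 was 4.14-fold lower at 201.8 against 836.3, by its only probe set. These 3 genes stayed past 2-fold in the same direction under every alternative run. The other 7 measured Ndufb genes were within 2-fold, among them Ndufb10 (6238 against 4047), Ndufb7 (7209 against 4986) and Ndufb3 (3124 against 4408). Of the remaining accessory genes, Ndufs4 (1877 against 3384) and Ndufv3 (3144 against 5056) had the lowest values relative to the white cell fraction, at -0.85 and -0.69. The 4 measured probe sets of Ndufs4 ran from -0.85 to 0.57, so they did not agree on a sign. Ndufab1, the mitochondrial acyl carrier protein that also serves iron-sulfur cluster synthesis, had 4199 against 3021, and its measured probe sets ran from -1.29 to 0.47.

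The rest of complex I lay close to equality. Among the Ndufa genes the highest difference was that of Ndufa7 (9163 against 6381) and the lowest that of Ndufa6 (6105 against 8739). Ndufa13, also known as GRIM-19 for its link to interferon-induced cell death, had 7250 against 10266. Ndufa1 (14359 against 13051) and Ndufa3 (15208 against 13712) differed by 0.14 and 0.15. Ndufc2 was nearly equal in both fractions at 7543 against 7526, although its probe sets ran from -1.45 to 0.12. Ndufa12 had 6870 against 5687, and its 4 measured probe sets ran from -0.81 to 0.27. Ndufb8 had 3632 against 2934, and a second probe set read 18.3, under the detection level, against 211.8. Ndufb11, an X-linked membrane-arm gene, had 17369 against 13695, with probe sets from -0.11 to 0.91.

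Complex II, succinate dehydrogenase, was the only complex with no subunit above 0, but this holds only for some settings. After centring on genes measured in both arrays Sdhc gave 0.49 and Sdha 0.05, and Sdhc also gave 0.10 after quantile normalization, 0.06 with the mean of probe sets and 0.03 after centring on all probe sets. Sdha, the flavoprotein that oxidises succinate, had 4113 in the CD45-negative and 5652 in the CD45-positive array. Sdhb, the iron-sulfur subunit, had 4056 against 7197. The membrane anchors Sdhc and Sdhd had 1662 against 1685 and 1390 against 2159. All 4 lay within 2-fold, from -0.83 to -0.02, with a median of -0.55. The median stayed below 0 under every alternative, from -0.68 to -0.04, the latter after centring on genes measured in both arrays. With 4 genes and 1 array per group, a difference between complex II and the other complexes was not tested.

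Complex III, the cytochrome bc1 complex, had 7 of 8 subunits above 0, where 5107 of all 11793 measured genes were. Its median was 0.59 (0.19 to 1.10 over the alternatives). Of those 7, Uqcrh turned to -0.50 after quantile normalization and Uqcrq to -0.10 without probe sets of the x and s types. The Rieske iron-sulfur protein Uqcrfs1 stood at 7826 against 5214. Uqcrb, a small subunit near the ubiquinone site, had 43748 against 25172, and the hinge protein Uqcrh 17044 against 15168. The core proteins diverged: Uqcrc1 had 6537 against 4335, a difference of 0.59, while Uqcrc2 had 4352 against 8610, a difference of -0.98. The second probe set of Uqcrc2 gave -0.59, so its direction was the same in both. Only Uqcr10, a small membrane subunit, passed 2-fold, at 10165 against 4017 (2.53-fold higher). That call rests on 1 probe set, since the others gave -0.16 and 0.35, and it was 0.51 with their mean. Uqcrq (5196 against 3183) and Uqcr11 (4285 against 3413) were within 2-fold.

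Complex IV, cytochrome c oxidase, held the widest range of differences and the largest single one. Of its 11 broadly expressed genes, 9 were above 0 (Cox4i1, Cox5a, Cox5b, Cox6a1, Cox6b1, Cox6c, Cox7a2, Cox8a and Ndufa4, which was first assigned to complex I), and Cox7c and Cox7a2l were below -1. The 11 ran from -2.44 to 1.35 with a median of 0.76. After quantile normalization Cox5a, Cox6b1 and Cox6c turned to -0.41, -0.09 and -0.12. With the mean of probe sets, Cox5a and Cox8a gave -0.17 and -0.12. For Cox8a that mean takes in a probe set at 25.6 against 87.7, both under the detection level. The 2 measured probe sets of Cox8a gave 0.76 and 0.64. Cox6a1 had 58650 in the CD45-negative and 22975 in the CD45-positive array (2.55-fold higher). Cox5b had 37675 against 16669 (2.26-fold) and Cox7a2 41400 against 18771 (2.21-fold). None of these 3 passed 2-fold after quantile normalization, where they gave 0.89, 0.61 and 0.57. The second probe set of Cox7a2 gave 0.59, and the mean of its probe sets was 0.87, also under 2-fold. The 5 measured probe sets of Cox5b ran from 0.07 to 1.52, and the second of Cox6a1 gave 1.61. Cox4i1, the subunit at which ATP regulates the enzyme, had 42588 against 22867. Cox6c (20404 against 14055), Cox6b1 (28269 against 19575), Cox8a (6926 against 4087) and Ndufa4 (6292 against 3701) lay between 0.53 and 0.77. Cox5a had 11012 against 9798, and its probe sets did not agree on a sign.

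Cox6b2, known as the testis isoform of subunit 6b, was 51.9-fold higher in the CD45-negative array. Its only probe set read 15449 there and 297.7 in the white cell fraction, a difference of 5.70. The difference lay between 5.70 and 6.20 under every alternative. Cox6b1, its broadly expressed paralogue, differed by 0.53. Both subunits bind the enzyme on the side that faces cytochrome c. Without Cox6b2, an alternative chosen after seeing the data, the median of complex IV was 0.54 in place of 0.65.

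The other tissue isoforms had low signal. Of 8 restricted isoforms, 5 were not measured in either array. Cox4i2 (lung) read 84.2 and 31.0, Cox7a1 (heart and muscle) 83.6 and 20.5, Cox8b (heart and muscle) 57.1 and 6.0, Cox7b2 (testis) 59.9 and 26.4, and Ndufa4l2 (induced by hypoxia) 84.9 and 63.1. Each of these 5 genes read higher in the CD45-negative array, but all readings lay under the level of 101.1, and no fold is given. The receptor probe sets behind that level had medians of 33.6 in the CD45-negative and 17.5 in the CD45-positive array. Cox8c (testis) had 244.2 against 226.8. Cox6a2 (heart and muscle) had 162.2 against 396.6, 2.45-fold lower, which was -0.57 after quantile normalization.

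Among the lower members of complex IV, Cox7a2l had 4799 against 13234 (2.76-fold lower). Its 3 probe sets agreed, from -1.46 to -1.12. Its paralogue Cox7a2 was higher by 1.14, so these related genes differed in opposite directions. Cox7c had 243.3 against 1324 (5.44-fold lower) and 2 probe sets in agreement at -2.44 and -2.75. It kept its 2-fold call under every alternative, and Cox7a2l kept it except after centring on genes measured in both arrays, where it gave -0.96.

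**Figure D3:**
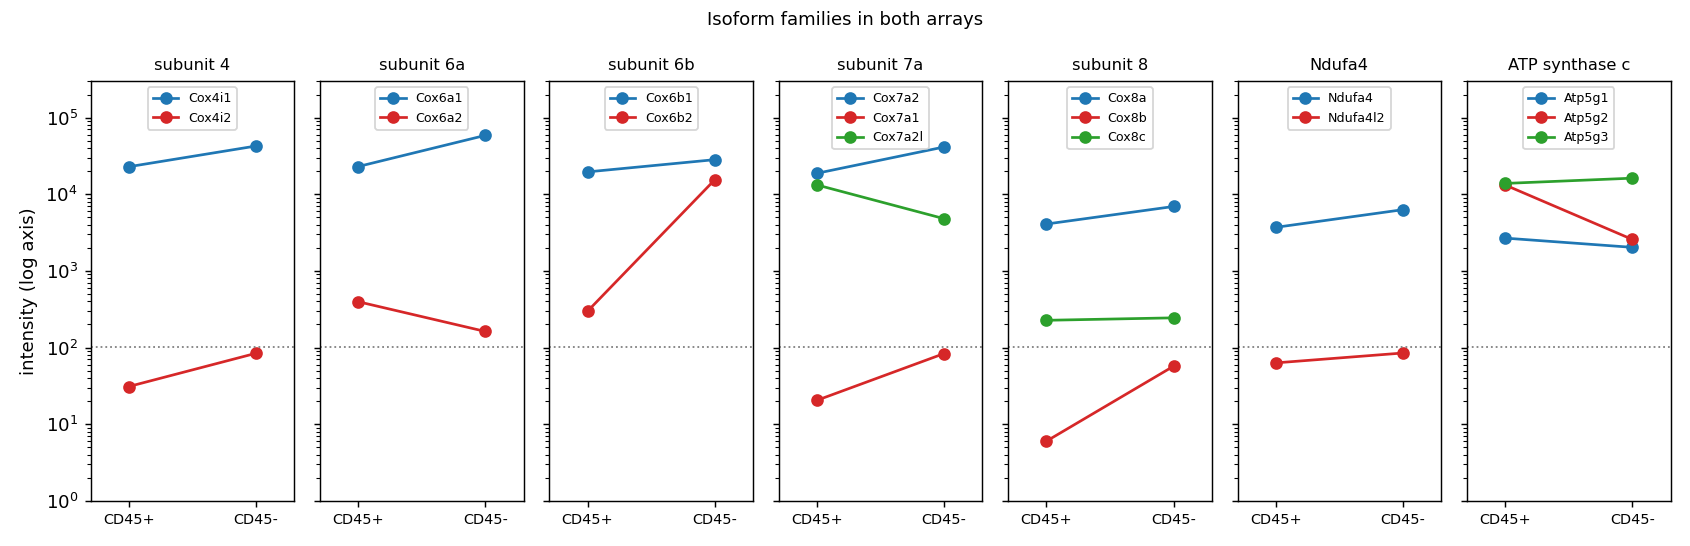
Intensity (log axis) of isoform families in the CD45-positive and CD45-negative arrays, 1 line per gene and 1 array per group; the dotted line is the detection level of 101.1. Lines show the change within a gene and are not to be compared in height between genes. Cox6b2 climbs from 297.7 to 15449 while Cox6b1 stays within 2-fold, and Atp5g2 and Cox7a2l run downward.

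The 250 bases before the start of the Cox6b paralogues are shown because these paralogues differed most. The sequences are RefSeq's for GRCm38.p6, on the minus strand in both cases, at chr7:4753095-4753344 for Cox6b2 and chr7:30626115-30626364 for Cox6b1. Capitals mark matches, on either strand, to the motifs searched: GCGCA and GCGC with any base between them for NRF1, CCGGAAG for ETS factors such as GABPA, AAGATGGCG for YY1, AGATAA for GATA factors and CCNCACCC for Kruppel-like factors.
Cox6b2: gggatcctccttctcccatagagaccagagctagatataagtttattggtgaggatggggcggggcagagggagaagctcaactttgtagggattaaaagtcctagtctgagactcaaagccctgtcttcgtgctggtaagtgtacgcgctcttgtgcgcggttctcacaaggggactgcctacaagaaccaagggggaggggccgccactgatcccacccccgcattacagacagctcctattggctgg
Cox6b1: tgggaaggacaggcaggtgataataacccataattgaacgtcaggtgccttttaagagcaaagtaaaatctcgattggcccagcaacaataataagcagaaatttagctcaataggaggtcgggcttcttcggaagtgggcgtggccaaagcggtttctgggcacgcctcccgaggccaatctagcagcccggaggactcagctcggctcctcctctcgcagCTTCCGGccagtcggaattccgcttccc
Cox6b1 held an ETS match starting 28 bases before the start site, and Cox6b2 held none of the 5 motifs in these bases or in the 50 after the start. A match is a description of letters and was not tied to the measured difference.

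NRF1 and GABPA are known regulators of respiratory chain genes. RefSeq's promoter table held 74 of the 90 members, with windows of 250 bases before to 50 after the start. NRF1 letters were found in 17 (23.0%) of them and in 5.19% of all 27025 genes in that table. ETS letters were in 19 (25.7%) against 9.93%, and YY1 letters in 7 (9.46%) against 1.64%. The GATA letters were in 6 (8.11%) against 12.7%, and the Kruppel-like letters in 14 (18.9%) against 18.4%. GATA and Kruppel-like factors include the main regulators of red cell genes. Measured subunits with NRF1 letters had a median difference of 0.05 (14 genes) and those without 0.27 (49 genes). For ETS letters the medians were 0.33 (17 genes) and 0.22 (46 genes), and for YY1 letters 0.14 (6 genes) and 0.27 (57 genes). For GATA letters they were 0.00 (5 genes) and 0.32 (58 genes), and for Kruppel-like letters 0.25 (12 genes) and 0.23 (51 genes).

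The ATP synthase had 14 of 17 subunits within 2-fold and a median difference of 0.34, which turned to -0.17 after quantile normalization. In its catalytic head, the beta subunit Atp5b, which holds the active sites, had 34602 in the CD45-negative and 16775 in the CD45-positive array (2.06-fold higher). The alpha subunit Atp5a1 had 12588 against 10066. Of the central stalk, the gamma subunit Atp5c1 had 10151 against 12187, and the delta subunit Atp5d 15515 against 10203. In the peripheral stalk, which holds the head still, Atp5h had 35810 against 17085 (2.10-fold higher), and Atp5pb 26033 against 15288. The 2-fold calls of Atp5b and Atp5h did not hold after quantile normalization, where they gave 0.44 and 0.50. Atp5o, which ties that stalk to the head, had 9158 against 7254, and Atp5j 6530 against 6953. Atp5e, also of the central stalk, had 8357 against 10013. The 5 small membrane subunits ran from -0.94 for Atp5md (2966 against 5699) to 0.79 for Atp5j2 (17531 against 10160). Between them lay Atp5mpl (9550 against 5981), Atp5l (16475 against 10741) and Atp5k (11788 against 8231). The measured probe sets of Atp5j2 ran from -0.81 to 1.12, so no size holds for it.

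The genes for the c subunit, which forms the rotating ring, differed from one another although they are known to encode the same mature protein. Atp5g2 had 2573 against 13220, 5.14-fold lower in the CD45-negative array. Atp5g1 had 2030 against 2679 and Atp5g3 16213 against 13844, differences of -0.40 and 0.23. A dim second probe set of Atp5g2 gave 0.17. The mean over its probe sets was -0.54, but it takes in another that read 41 and 27.7, under the detection level. The signs of Atp5g1 and Atp5g3 depended on the setting. Atp5g3 gave -0.44 after quantile normalization. Atp5g1 gave -0.44 there and 0.28 with the mean of probe sets. That mean takes in a probe set of Atp5g1 that read 10.9 and 5.6, under the detection level. The bases before the start of these 3 genes are shown because their products are alike and their differences are not, from RefSeq's GRCm38.p6, all on the minus strand: Atp5g1 at chr11:96075632-96075881, Atp5g2 at chr15:102671048-102671297 and Atp5g3 at chr2:73911327-73911576. Capitals mark the same motifs as above.
Atp5g1: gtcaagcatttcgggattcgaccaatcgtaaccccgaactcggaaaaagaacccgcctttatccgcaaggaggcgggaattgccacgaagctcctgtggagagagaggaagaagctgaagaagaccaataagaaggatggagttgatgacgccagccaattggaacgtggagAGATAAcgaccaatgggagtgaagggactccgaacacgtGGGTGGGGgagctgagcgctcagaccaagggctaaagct
Atp5g2: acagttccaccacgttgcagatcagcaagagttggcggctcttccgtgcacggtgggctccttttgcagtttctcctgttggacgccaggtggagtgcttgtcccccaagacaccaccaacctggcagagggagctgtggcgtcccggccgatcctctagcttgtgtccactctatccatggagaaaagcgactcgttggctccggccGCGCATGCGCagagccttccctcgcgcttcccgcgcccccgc
Atp5g3: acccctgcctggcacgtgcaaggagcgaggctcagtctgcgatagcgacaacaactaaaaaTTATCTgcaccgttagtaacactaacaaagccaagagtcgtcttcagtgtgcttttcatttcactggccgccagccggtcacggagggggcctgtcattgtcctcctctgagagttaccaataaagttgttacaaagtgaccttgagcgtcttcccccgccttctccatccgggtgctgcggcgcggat
Atp5g2 held an NRF1 match starting 42 bases before the start site. Atp5g3 held a GATA match starting 189 bases before it and an NRF1 match among the 50 bases after it, which are not printed. Atp5g1 held a GATA match starting 78 bases and a Kruppel-like match starting 39 bases before its start.

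The complex I assembly factors were mostly lower in the CD45-negative array. Of 8, 5 were at least 2-fold lower and 0 higher, with a median of -1.44, where 33.3% of all measured genes were that much lower. Ndufaf5 had 101.5 against 412.6 and Ndufaf6 21.7 against 365.4. The receptor level taken from the CD45-negative array alone was 127, so these 2 are given as at least 3.24-fold and at least 2.87-fold lower. Ndufaf4 had 237.0 against 754.6 (3.18-fold lower), with a second probe set at -1.28. Ndufaf7, a methyltransferase that acts on a core subunit, had 190.7 against 539.6 (2.83-fold lower), and Ndufaf8 674.7 against 1753 (2.60-fold lower). Ndufaf2 had 336.3 against 595.4 and Ndufaf1 1108 against 1174. Ndufaf3 was the only one higher, at 1812 against 1278. Of the 5, only Ndufaf5 and Ndufaf6 stayed past 2-fold in every alternative. Ndufaf4 and Ndufaf7 gave -0.99 and -0.77 after quantile normalization, Ndufaf7 and Ndufaf8 -0.99 and -0.87 after centring on genes measured in both arrays, and Ndufaf8 -0.97 with the mean of probe sets.

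Assembly factors outside the symbol rule were also mostly lower. Of 36 measured, 16 (44.4%) passed 2-fold on the lower side, where 33.3% of all measured genes did, and 2 (5.56%) on the higher, where 16.8% did. The median was -0.90 (-0.95 to -0.39 over the alternatives). Of the factors that build complex II, Sdhaf1, which helps to insert iron-sulfur clusters, had 312.4 against 1843 (5.90-fold lower). Atpaf1, which assembles the head of the ATP synthase, had 108.2 against 703.8, at least 5.53-fold lower. Sdhaf3 had 110.1 against 678.2, at least 5.33-fold lower, but the mean of its probe sets was 1.71, so its direction does not hold. Ecsit, a complex I factor, had 142.8 against 716.2 (5.02-fold lower), and Sco2, a copper chaperone of complex IV, 115.9 against 537.6 (at least 4.23-fold lower). Cox16 had 367.1 against 3216 (8.76-fold lower), but the mean over its probe sets was -0.28. The exceptions were Cox11, another copper chaperone, at 2348 against 734.2 (3.20-fold higher), and Pet100 at 5065 against 2268 (2.23-fold higher). With the mean of probe sets these gave -0.08 and -0.24, so no direction holds for either.

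Genes that drive mitochondrial biogenesis and the expression of mitochondrial DNA were lower in 13 of 18 cases. Of all 11793 measured genes, 6686 were below 0. Of the 18 measured, 10 (55.6%) passed 2-fold on the lower side, against 33.3% of all measured genes, and 0 on the higher, against 16.8%. The median was -1.15, or -0.49 with the mean of probe sets. Polrmt, the mitochondrial RNA polymerase, had 167.4 against 1402 (8.37-fold lower), and -1.82 with the mean of probe sets. Tfam, which packs mitochondrial DNA and starts its transcription, had 713.8 against 3378 (4.73-fold lower), and -1.43 by that mean. Twnk, the mitochondrial DNA helicase, had 51.8 against 570.7 and the coactivator Ppargc1b 32.8 against 487.6, at least 4.49-fold and at least 3.83-fold lower. The transcription factors of the nuclear genes were mixed: Nrf1 had 1188 against 800.8, Gabpa 1189 against 1880, its partners Gabpb1 and Gabpb2 1153 against 610.2 and 3560 against 2911, and Yy1 7853 against 5760, all within 2-fold. Averaged over probe sets, Nrf1 and Gabpb1 gave 1.17 and 1.12, and Gabpb2 also reached 2-fold. The nuclear receptor Esrra had 97.0, under the detection level, against 242.6, at least 1.91-fold lower. Of the mitochondrially encoded subunits, 1 was named by a probe set, ND5 of complex I, with 23795 against 46031, a difference of -0.95.

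Of cytochrome c, cytochrome c1 and the inhibitor of the ATP synthase, 1 of 3 passed 2-fold, on the higher side, where 16.8% of all measured genes did. Their median was 0.93, and 0.42 after quantile normalization. Cytochrome c (Cycs) had 24341 against 13043 and cytochrome c1 (Cyc1), the haem subunit of complex III whose symbol the rule does not take, 11418 against 5984. Atpif1, the inhibitor that stops the ATP synthase from running backward, had 40637 against 3093, 13.1-fold higher. Atpif1 gave 3.55 with the mean over its 3 probe sets. Enzymes of the citric acid cycle and pyruvate dehydrogenase, which feed the chain, were mixed: of 17 measured, 1 (5.88%) passed 2-fold on the higher side and 6 (35.3%) on the lower, the latter close to the 33.3% of all measured genes. The median was -0.27 (-0.35 to 0.24 over the alternatives). The succinyl-CoA synthetase genes were among the lower ones, with Suclg1 at 744.9 against 3144 (4.22-fold), Suclg2 at 511.2 against 1924 (3.76-fold) and Sucla2 at 943.2 against 2445 (2.59-fold). Succinyl-CoA is the mitochondrial precursor of haem. Pdhx, a component of pyruvate dehydrogenase, had 609.7 against 241.2 (2.53-fold higher).

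**Figure D4:**
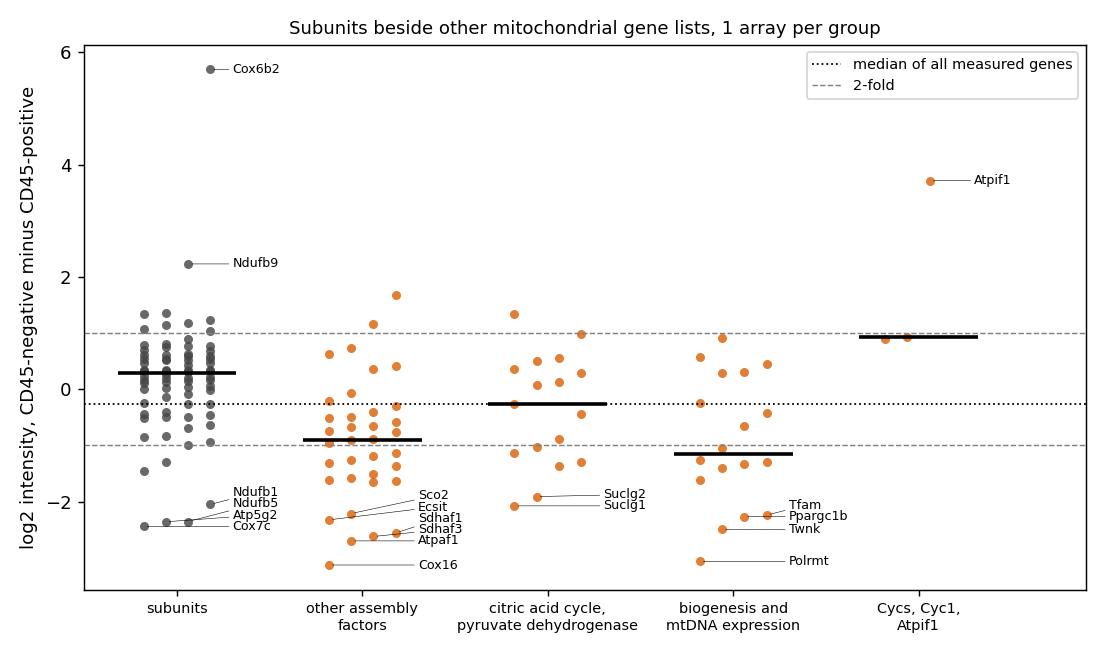
Log2 difference between the arrays (CD45-negative minus CD45-positive) for measured subunits and for 4 lists of related mitochondrial genes, 1 point per gene; thick bars are medians, the dotted line is the median of all measured genes and dashed lines mark 2-fold. The medians are 0.29 for subunits, -0.90 for other assembly factors, -0.27 for the citric acid cycle list, -1.15 for the biogenesis list and 0.93 for Cycs, Cyc1 and Atpif1.

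Agreement between probe sets was the only repeated measure, and it is not replicate error. Of the 20 members past 2-fold, subunits and assembly factors together, 13 had several probe sets above the level. In 7 of the 13 all of these passed 2-fold the same way, and in 2 (Uqcr10 and Atp5g2) they disagreed in sign. Over the 48 members with several measured probe sets, the pooled SD of the difference was 0.60, against 1.20 over 5474 genes, and 17 of the 48 had both signs. No member had probe sets past 2-fold in opposite directions. All 20 kept their direction under every alternative run in which they had a value. They were chosen for differences of at least 2-fold. Changes of scaling or detection level moved each by less than that, except Ndufaf6. With no detection level it went further the same way, from -1.85 to -4.07. Only a change of probe sets could readily have reversed them, so the kept direction is little support. The 2-fold call held throughout for 7 of them, namely Cox6b2 and Ndufb9 (higher) and Ndufb5, Ndufb1, Cox7c, Ndufaf5 and Ndufaf6 (lower).

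**Figure D5:**
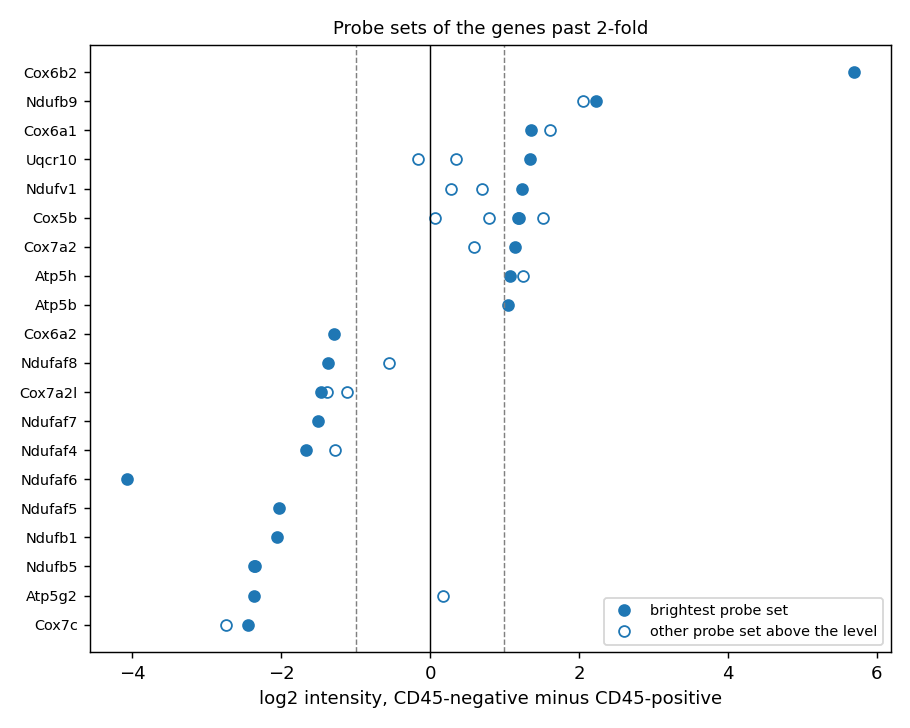
Log2 difference between the arrays for every probe set above the detection level of the 20 members past 2-fold, without the detection level applied; filled points are the brightest probe set of each gene, open points the others, and dashed lines mark 2-fold. Probe sets of Ndufb9, Ndufb5, Cox6a1, Cox7a2l and Cox7c lie together, and those of Uqcr10 and Atp5g2 lie on both sides of 0.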

How the data were processed

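Per the labels' protocols, biotinylated cRNA from total RNA was hybridised to Affymetrix arrays, 1 per fraction. The deposited table gives an intensity per probe set on a linear scale, spanning 0.5 to 104603 (CD45-negative) and 0.1 to 74470 (CD45-positive). The submitters' processing notes name GCRMA and Partek 6.6 without saying which made these values. Means with 2% left out at each end were 494 and 497, so the arrays were scaled alike by a step these sources do not name. This table has no detection or saturation calls, and the number of arrays limits the precision.

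Intensities were taken to log2 with no pseudocount. Of 45037 probe sets, 34945 had 1 symbol in the platform annotation, 932 several and 9160 none; only the first were used for genes. All 90 members matched a RefSeq symbol of GRCm38.p6. With 1 array per group no model was fitted: genes were counted past 2-fold and 4-fold, beside the same share of all measured genes. Members and gene lists were chosen with earlier results of these data known. Each complex names its members past 2-fold, core subunits, isoform families and members whose measured probe sets differ from each other by 2-fold or more. The related lists name members past 4-fold and the largest differences. Ndufa4 and Ndufa4l2 are counted with complex IV. Alternatives changed the probe set rule, scaling, detection level, probe set type and fold. Calculations used pandas 2.3.3 with numpy 2.4.6 under Python 3.11.15, and figures matplotlib 3.10.9, and the calculations were tested on simulated data.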

Additional observations from a re-analysis of the deposited data

How the results depend on the processing

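The direction of the small median differences depended on the scaling between arrays. Single genes past 2-fold kept theirs, which their selection by size made likely. Of 112 medians and counts recomputed, 107 stayed within 1.5 times (counts) or within 0.60, the SD between members' probe sets (medians). In size, the 0.60 is larger than the medians of all subunits, complexes I, II, III and V and the citric acid cycle list. A change of sign there could thus count as staying. It did so for all subunits, complexes I and V and the citric acid cycle list. Centring also shifts every measured subunit alike, so the count of 107 is not a test of stability. After quantile normalization 2 of 76 subunits were at least 2-fold higher and 10 lower, in place of 9 and 6. Of all measured genes, 21.8% and 26.0% then were. After centring on genes measured in both arrays, an alternative chosen after seeing the data, 27 of 76 were higher and 45 within 2-fold. Of all measured genes, 23.9% were then higher and 51.6% within 2-fold. The share of subunits 2-fold higher was thus below that of all measured genes as deposited, and above it after that centring. At a fold of 4, 2 were higher, where 8.31% of all measured genes were. The biogenesis list had a median of -0.49 with the mean of probe sets. Over all alternatives the median ran from -0.11 to 0.80 for all subunits, from -0.16 to 0.70 for complex I and from -0.17 to 0.84 for complex V. With Ndufa4 and Ndufa4l2 counted in complex I, the medians of complexes I and IV were 0.19 and 0.54. Of the 20 members past 2-fold, 10 remained so after quantile normalization, 14 with the mean of probe sets and 16 after centring on genes measured in both arrays. Quantile normalization moved the median of all measured genes by 0.27 and that centring by 0.38. Genes close to the detection level, such as Ndufaf5 and Ndufaf6, are limited by signal over background. No paired analysis was possible because each group has 1 array.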

Other observations

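Probe sets that carry several gene names were kept out of the comparison, and some read subunits of complex I. The bright ones for Ndufb4 and its near-identical copies Ndufb4b and Ndufb4c had 9228 against 5476 and 6818 against 3976 (CD45-negative against CD45-positive), while the probe set named for Ndufb4 alone was under the detection level. Ndufa11 with Ndufa11b had 5982 against 3819, and Ndufs6 with Ndufs6b 3992 against 3449. Ndufs5 with Ndufs5-ps had 2281 against 1873, and Ndufb2 with Adck2 160.2 against 137.7. Lower in the CD45-negative array were Ndufab1 with Ndufab1-ps, at 1320 against 2101, and a second probe set of Ndufa11 with Ndufa11b, at 48.4, under the detection level, against 105.1. The differences of these 8 probe sets ran from -1.12 to 0.78.

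The nearest protein-coding neighbours of the 6 subunits past 4-fold, in RefSeq's gene order of GRCm38.p6, had their own values. Beside Cox6b2 lies Kmt5c, a histone methyltransferase gene, with 3680 against 507.5, a difference of 2.86, and the neighbour on its other side has no value here. Ndufb9 lies between Tatdn1 (1126 against 334.4) and Mtss1 (565.9 against 2894). Ndufb5 lies next to Mrpl47, a mitochondrial ribosomal protein gene (330.8 against 872.9), and Cox7c next to Rasa1 (652.4 against 2427). Atp5g2, which was lower, lies next to Calcoco1, which was higher (2723 against 532.7). The neighbours of Ndufb1, Atxn3 (434.7 against 471.0) and Cpsf2 (993.2 against 1236), were within 2-fold. The neighbours Usp13, Edil3 and Atf7 were not measured.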
